A study of Homo sapiens with 6 samples.

Results

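Fatty acid oxidation and its switch against pyruvate use were followed in 43 genes. They cover the carnitine shuttle, mitochondrial and peroxisomal beta-oxidation, the electron transfer flavoprotein and the control of pyruvate dehydrogenase. They were chosen by gene symbol, and each of the 43 symbols had 1 row among the 19589 features of the authors' deposited table. RNA sequencing of ribosome-depleted total RNA compared cells transfected with an siRNA against HOTAIR (siHOTAIR, 3 labelled libraries) with cells transfected with a negative control siRNA (siNC, 3 labelled libraries). HOTAIR is a long noncoding RNA transcribed from the HOXC cluster. Both groups are labelled HepG2, a line from a human liver cancer, and both were grown in high-glucose medium with serum. The labels name no separate cultures behind the libraries, so the p-values rest on a spread between libraries that may be only technical.

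Long-chain fatty acids enter mitochondria as carnitine esters and are shortened there by a cycle of dehydrogenation, hydration, a second dehydrogenation and thiolysis. The first dehydrogenation hands its electrons to the electron transfer flavoprotein, and very long chains are shortened in peroxisomes first. Pyruvate dehydrogenase kinases phosphorylate and switch off the pyruvate dehydrogenase complex, and PDK4 is the kinase known for its induction in fasted liver and muscle, where fat replaces glucose as the fuel.

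The deposited files hold no value for a single library, but the deposited means are whole-number sums of 5 fixed steps, each the share of 1 read in 1 library. Reads of 3 siHOTAIR and 2 siNC libraries were recovered from them for all 43 genes and are given here as normalized reads, the reads divided by the size factor of the library. The third labelled siNC library is not represented in the means. The recovered libraries held 6025427 to 7878486 reads in siHOTAIR and 5937836 and 7748244 reads in siNC over the recovered features. HOTAIR itself had 62.4, 78.2 and 59.7 normalized reads in the siHOTAIR libraries, against 202 and 150.1 in the siNC libraries. HOTAIR fell by 1.37 on the log2 scale (SE 0.197) in the authors' deposited table, with an adjusted p of 5.6e-11. The hepatocyte markers went against the HepG2 label. Of 19 such markers 8 had no row, among them ALB, APOB, TTR and AFP, and 8 of the 11 with a row had a deposited mean under 1 read. CPS1, a urea cycle enzyme, was an exception with a mean of 23334 in the authors' deposited table, while the factor HNF4A had 2.6 to 7.89 normalized reads in siHOTAIR and 1.67 to 6.72 in siNC. The cells are therefore called the libraries labelled HepG2.

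Of the 42 genes with an adjusted p, 18 fell and 6 rose in siHOTAIR at an adjusted p under 0.05 in the authors' deposited table. This is 42.9% lower and 14.3% higher, beside 20.4% lower and 20% higher among all 14597 features with an adjusted p. In total 24 genes or 57.1% passed, beside 40.4% of all features. The authors' own call word in the authors' deposited table marked 5 of them as down and 2 as up, beside 3.91% of all 19589 features in either direction. The median log2 fold change was -0.17 over the 42 genes and 0.01 over all features. A change of at least 2-fold was called downward for 6 genes, ACADSB, EHHADH, ETFB, ACAD11, ACADM and PDK3, beside 3.51% of all features, and upward for 2, PDK4 and CPT1C, beside 2.73%. ACOX2, with 0, 1 and 0 reads in siHOTAIR and 2 and 2 reads in siNC, had no adjusted p.

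In the recovered reads 41 of the 43 genes averaged at least 20 normalized reads. For 23 of them every siHOTAIR library was below both siNC libraries and for 7 above both, beside 34.7% below and 32.9% above among the 11941 features with such a mean. limma on these reads called 18 of the 41 genes lower and 7 higher, beside 27.7% and 26.2% of those features, or 53.8% in either direction. The share of genes that fell was highest among those with few reads. With means under 100, 4 of 7 genes or 57.1% fell, beside 11.5% of all features at that level. Between 100 and 500, 9 of 18 or 50.0% fell, beside 27.2%. From 500 upward, 5 of 17 or 29.4% fell, beside 23.6%. The share that rose was 14.3% under 100, 11.1% from 100 to 500 and 17.6% from 500 upward, beside 8.18%, 20% and 36.1%. No test of the list as a whole was made. In bulk RNA, fewer cells that express a gene and less RNA per cell cannot be told apart.

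**Figure D1:**
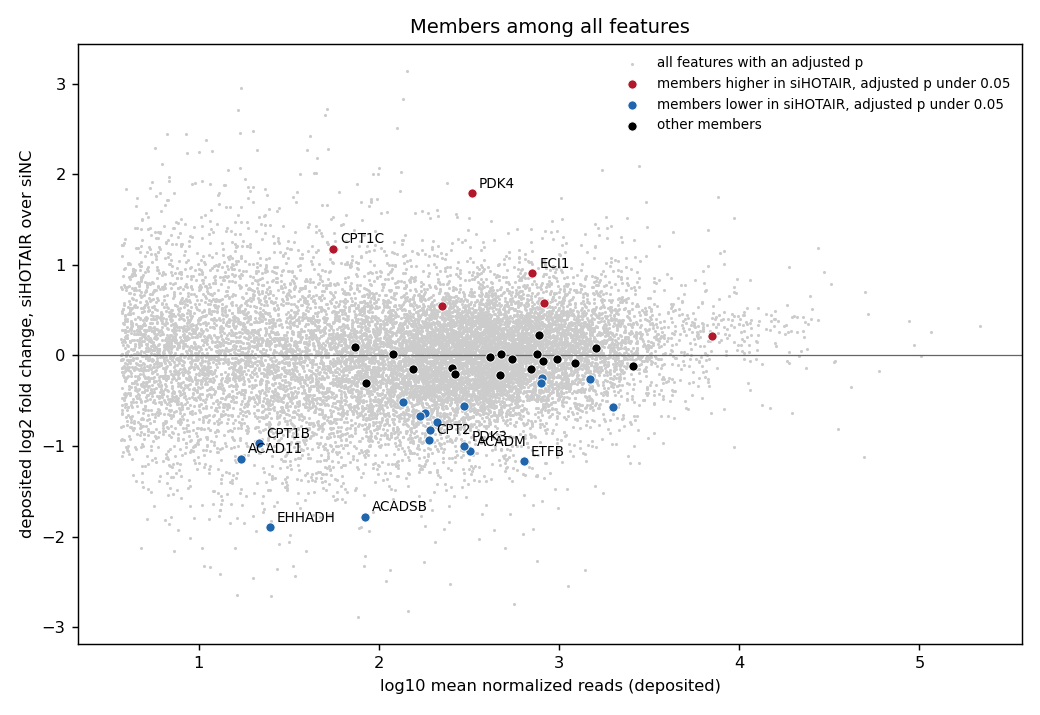
Deposited log2 fold change of siHOTAIR over siNC (vertical) against the log10 of the deposited mean of normalized reads (horizontal) for 14597 features in grey and the 42 genes with an adjusted p in colour. The 6 red genes lie above 0 and the 18 blue genes below it, with PDK4 at 1.79 and EHHADH at -1.90 at the ends of their range.

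Among the 8 genes called with at least 2-fold change, PDK4, PDK3 and ACADM have a single annotated start in the RefSeq promoter table of GRCh38.p14. Their 250 bases before the start are shown because PDK4 and PDK3, a pair of kinases with the same substrate, moved in opposite directions, while the dehydrogenase ACADM fell. The sequences run 5′ to 3′ toward the start. Capitals mark GGGCGG or its reverse complement, the GC box bound by SP1 family factors, and in PDK3 also ACGTG, the core of the hypoxia response element.
PDK4 chr7:95596517-95596766 (minus strand): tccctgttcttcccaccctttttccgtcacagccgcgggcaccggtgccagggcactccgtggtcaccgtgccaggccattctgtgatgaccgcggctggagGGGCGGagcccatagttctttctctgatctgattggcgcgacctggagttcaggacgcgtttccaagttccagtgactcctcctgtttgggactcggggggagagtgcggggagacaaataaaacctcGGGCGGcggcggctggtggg
PDK3 chrX:24465036-24465285 (plus strand): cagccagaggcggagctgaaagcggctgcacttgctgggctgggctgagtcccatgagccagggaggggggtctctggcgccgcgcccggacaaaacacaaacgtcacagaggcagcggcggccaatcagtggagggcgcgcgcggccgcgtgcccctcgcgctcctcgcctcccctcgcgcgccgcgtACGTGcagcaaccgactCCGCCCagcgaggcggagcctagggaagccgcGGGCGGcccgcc
ACADM chr1:75724459-75724708 (plus strand): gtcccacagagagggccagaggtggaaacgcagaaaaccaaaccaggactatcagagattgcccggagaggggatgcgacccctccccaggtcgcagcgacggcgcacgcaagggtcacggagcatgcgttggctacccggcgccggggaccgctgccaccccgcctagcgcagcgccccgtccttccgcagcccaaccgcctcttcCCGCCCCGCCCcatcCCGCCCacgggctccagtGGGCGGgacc
All 3 windows held at least 2 GC boxes. Their first bases lie at -148 and -20 in the PDK4 window, counted backward from the start, and the ACADM window holds 4, at -43, -38, -28 and -10. Of the 43 genes 34 were matched to at least 1 window in the table, 49 windows in all, and CPT1B, ACAD11, DECR1, DECR2, ACOX2, EHHADH, ACAA1, ETFDH and PDP1 were not. A GC box on either strand stood in the windows of 28 of the 34 genes (82.4%), beside 46.2% of 27305 genes in the table. It was found for 5 of 6 genes that rose, 11 of 12 that fell and 12 of 16 that did not pass, so both directions carried it. The median GC content was 66.0% over the 49 windows and 58.0% over all 35116 windows.

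The other motifs searched on both strands were rarer. AGGTCA, the core site of nuclear receptors such as the PPARs, was in a window of 1 of the 34 genes, ACAD10, beside 14.6% of all genes. TCAAGGTCA, the extended site of oestrogen-related receptors, which contains AGGTCA, was in 0 of 34, beside 0.388%. GTAAACA, a forkhead site, was in 0 of 34, beside 3.66%. ACGTG was in 13 of 34 (38.2%), beside 21.7%. CCGGAAG, an ETS site, was in 3 (CPT2, ECI1 and ETFB; 8.82%, beside 10.2%), TGACGTCA, the cyclic AMP response element, which contains no other motif searched, in 2 (ACAD9 and ACOX3; 5.88%, beside 2.03%), and TATAAA in 2 (ACADVL and PDK1; 5.88%, beside 13.0%). These are matches of letters in 250 bases and say nothing of binding.

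The pyruvate dehydrogenase kinases moved apart. PDK4 had 476, 485 and 418 normalized reads in the siHOTAIR libraries, against 142 and 118 in the siNC libraries. The siHOTAIR mean was 354% of the siNC mean, and the groups lay far apart. PDK4 rose by 1.79 on the log2 scale (SE 0.136; 3.45-fold) in the authors' deposited table, with an adjusted p of 1.86e-37. PDK3, the kinase encoded on the X chromosome, had 216, 208 and 209.5 normalized reads in siHOTAIR, against 425 and 428 in siNC. Both groups were tight, and the siHOTAIR libraries stood at 49.4% of the siNC mean. PDK3 fell by 1.0 (log2, SE 0.119) in the authors' deposited table, with an adjusted p of 7.67e-16. PDK1, the hypoxia-induced kinase, had 256, 269 and 222 normalized reads in siHOTAIR, against 383 and 355 in siNC, with no overlap. PDK1 fell by 0.56 (log2, SE 0.123) in the authors' deposited table, with an adjusted p of 3.21e-05. PDK2, the most widely expressed of the kinases, had 392, 423 and 421 normalized reads in siHOTAIR and 439.5 and 393 in siNC. Its groups overlapped, and PDK2 was at -0.02 (log2, SE 0.108) in the authors' deposited table, with an adjusted p of 0.905.

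Divided by the length of all annotated exons, the order of the 4 kinases differed between the groups. PDK4 averaged 102 ± 8.03 normalized reads per kb in siHOTAIR and 28.8 ± 3.86 in siNC (SD, n = 3 and 2). PDK3 averaged 42.6 ± 0.848 per kb in siHOTAIR and 86.2 ± 0.384 in siNC. PDK2 stood at 75.2 ± 3.13 per kb in siHOTAIR and 76.0 ± 5.97 in siNC, and PDK1, the lowest in siHOTAIR and in siNC, at 16.7 ± 1.63 and 24.8 ± 1.34. Per kb, PDK4 thus led in every siHOTAIR library and PDK3 in every siNC library. This order depended on the division by length. In undivided normalized reads PDK2 exceeded PDK4 in siHOTAIR library c (421 beside 418) and PDK3 in siNC library a (439.5 beside 425). PDK1, with 383 and 355 undivided in siNC, exceeded PDK4, with 142 and 118. Which annotated exons the transcripts held was not measured. In siNC the neighbours in this order lay close: PDK4 had 31.5 and 26 per kb beside 25.8 and 23.9 for PDK1, and PDK3 85.9 and 86.4 beside 80.2 and 71.8 for PDK2. PDK4 made up 44.3%, 43.9% and 40.8% of the summed per-length level in siHOTAIR, against 14.1% and 12.5% in siNC. PDK3 made up 18.3%, 17.2% and 18.7% in siHOTAIR, against 38.5% and 41.5% in siNC. The sum of the 4 was 238, 244 and 227 per kb in siHOTAIR, against 223 and 208 in siNC. The groups of sums did not overlap, and a two-sided exact permutation test gave p = 0.2, the smallest that 3 against 2 libraries allow. PDK1 has 2 pseudogenes by name (PDK1P1 and PDK1P2), whose share of its reads is unknown.

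**Figure D2:**
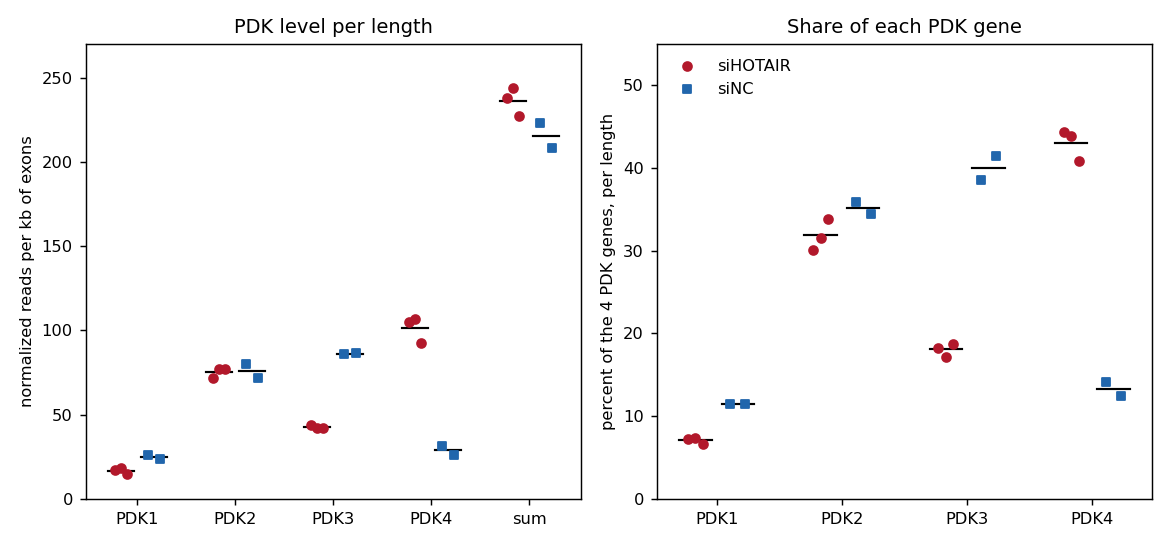
Left, normalized reads per kb of annotated exons for the 4 PDK genes and their sum. Right, the share of each gene in that sum in percent. Points are single libraries (3 siHOTAIR, red circles; 2 siNC, blue squares) and bars are group means. PDK4 averaged 43.0% of the sum in siHOTAIR and 13.3% in siNC, and PDK3 18.1% in siHOTAIR and 40% in siNC.

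Of the complex that these kinases act on, 1 of 5 subunits passed, beside 40.4% of all features. PDHA1, the X-linked catalytic subunit that carries the phosphorylated serines, had 1735, 1689 and 1572 normalized reads in siHOTAIR, against 2401 and 2570.2 in siNC. No siHOTAIR library reached the lower siNC library. PDHA1 fell by 0.57 (log2, SE 0.0722) in the authors' deposited table, with an adjusted p of 4.83e-14. PDHB, its partner in the same E1 tetramer, had 889.7, 805 and 719 normalized reads in siHOTAIR and 844 and 840.3 in siNC, and the groups overlapped. The ratio of PDHA1 to PDHB reads was 1.95, 2.10 and 2.19 in siHOTAIR, against 2.85 and 3.06 in siNC. The E2 core DLAT, the E3 subunit DLD and the E3-binding protein PDHX were at -0.04, 0.01 and -0.22 on the log2 scale in the authors' deposited table, and none passed. PDHX, with an adjusted p of 0.0749 there, passed in limma at 0.0453. It also passed narrowly in limma-voom (0.0423) and over features with a mean of at least 5 (0.0484). It missed the threshold at 0.0508 under another scaling and in each fit without 1 library of either group. Without siNC library a or b, which leaves 1 siNC library, its limma log2 fold change was -0.27 and -0.17. PDHA1P1, a pseudogene of PDHA1, and the exons of MAP3K15 on the opposite strand could share its reads.

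The pyruvate dehydrogenase phosphatases, which reverse the kinases, did not pass. PDP1 had 84.0, 80.3 and 68.7 normalized reads in siHOTAIR and 95.4 and 97.5 in siNC, and PDP2 had 249, 237 and 262 in siHOTAIR and 287 and 287 in siNC. No siHOTAIR library reached a siNC library for either gene. In the authors' deposited table PDP1 was at -0.30 (log2, SE 0.204) with an adjusted p of 0.253 and PDP2 at -0.20 (SE 0.125) with 0.201.

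In the carnitine shuttle, 3 of 4 genes fell and 1 rose, beside 20.4% and 20% of all features. CPT1A, the liver form of the rate-limiting carnitine palmitoyltransferase of the outer membrane, had 1403, 1290.0 and 1416 normalized reads in siHOTAIR, against 1641 and 1640.3 in siNC. The siHOTAIR libraries stood at 83.5% of the siNC mean, without overlap. CPT1A fell by 0.26 (log2, SE 0.0731) in the authors' deposited table, with an adjusted p of 0.00163. Without siHOTAIR library b, limma gave CPT1A an adjusted p of 0.0901. CPT2, the inner-membrane enzyme that frees the acyl group again, had 152, 145 and 119 normalized reads in siHOTAIR, against 255 and 281 in siNC. CPT2 thus stood at 51.7% of its siNC mean, and its groups lay well apart. CPT2 fell by 0.93 (log2, SE 0.149) in the authors' deposited table, with an adjusted p of 5.66e-09. A pseudogene, CPT2P1, could share its reads.

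CPT1C, the brain form, which resides in the endoplasmic reticulum and has little transferase activity, rose. CPT1C had 80.6, 65.3 and 71.0 normalized reads in siHOTAIR, against 31.8 and 29.1 in siNC, and averaged 237% of the siNC mean in siHOTAIR, with no overlap. CPT1C rose by 1.18 (log2, SE 0.266) in the authors' deposited table, with an adjusted p of 5.54e-05. CPT1B, the muscle form, was the least read of the 3, with 10.4, 20.3 and 14.6 normalized reads in siHOTAIR and 41.9 and 21.3 in siNC. The groups touched, with 20.3 in the highest siHOTAIR and 21.3 in the lowest siNC library. CPT1B fell by 0.97 (log2, SE 0.389) in the authors' deposited table, with an adjusted p of 0.0342. Without siNC library a the limma log2 fold change of CPT1B was -0.51 (adjusted p = 0.405), against -0.99 with all libraries, and without siHOTAIR library a its adjusted p was 0.0663. CPT1B also shares exons with the readthrough gene CHKB-CPT1B. Per kb of exons, CPT1A made up 92.9% ± 0.402 of the 3 genes in siHOTAIR and 95.1% ± 1.40 in siNC (SD, n = 3 and 2), and CPT1C 5.48% ± 0.426 in siHOTAIR and 1.98% ± 0.0935 in siNC.

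Of the 7 acyl-CoA dehydrogenases, which open each turn of the cycle, 5 fell and 1 rose, beside 20.4% and 20% of all features. No group of genes with 1 role was tested as a set. ACADSB, which acts on short branched chains, had 39.8, 54.6 and 29.3 normalized reads in siHOTAIR, against 155 and 141 in siNC. Its siHOTAIR mean was 27.9% of its siNC mean. ACADSB fell by 1.78 (log2, SE 0.224; 3.43-fold) in the authors' deposited table, with an adjusted p of 4.89e-14. ACADM, the medium-chain enzyme, had 243, 214 and 208 normalized reads in siHOTAIR, against 474 and 464 in siNC. Both groups were tight and lay far apart. ACADM fell by 1.06 (log2, SE 0.118) in the authors' deposited table, with an adjusted p of 1e-17. ACAD11, an enzyme of long and very long chains, had 12.1, 8.56 and 11.3 normalized reads in siHOTAIR, against 27.6 and 25.8 in siNC, few reads but no overlap. ACAD11 fell by 1.14 (log2, SE 0.405) in the authors' deposited table, with an adjusted p of 0.0144. ACADM shares exon bases on its strand with RABGGTB and ACAD10 with AC002996.1.

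Smaller differences were found for 3 other dehydrogenases. ACAD10 had 119.5, 110.3 and 121 normalized reads in siHOTAIR, against 172 and 162 in siNC, and fell by 0.51 (log2, SE 0.164) in the authors' deposited table, with an adjusted p of 0.00638. ACAD9, also an assembly factor of respiratory complex I, had 665, 797 and 782 normalized reads in siHOTAIR, against 887 and 884 in siNC. ACAD9 fell by 0.25 (log2, SE 0.0931) in the authors' deposited table, with an adjusted p of 0.0237. In limma the call of ACAD9 was lost without siHOTAIR library a, siNC library a or siNC library b, with adjusted p of 0.115, 0.0695 and 0.0632. ACADVL, the very-long-chain enzyme bound to the inner membrane, went the other way and was by far the most read of the 7. ACADVL had 7072, 7699.5 and 7541 normalized reads in siHOTAIR, against 6362 and 6529 in siNC, all higher in siHOTAIR. ACADVL rose by 0.21 (log2, SE 0.0709) in the authors' deposited table, with an adjusted p of 0.0117. This call was lost in limma without siNC library a (adjusted p = 0.0833) or siHOTAIR library b (0.182), and after centring on features with high means (log2 fold change 0.12, adjusted p = 0.16). ACADS, the short-chain enzyme, had 112, 123 and 126 normalized reads in siHOTAIR and 113 and 125 in siNC, which overlapped.

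**Figure D3:**
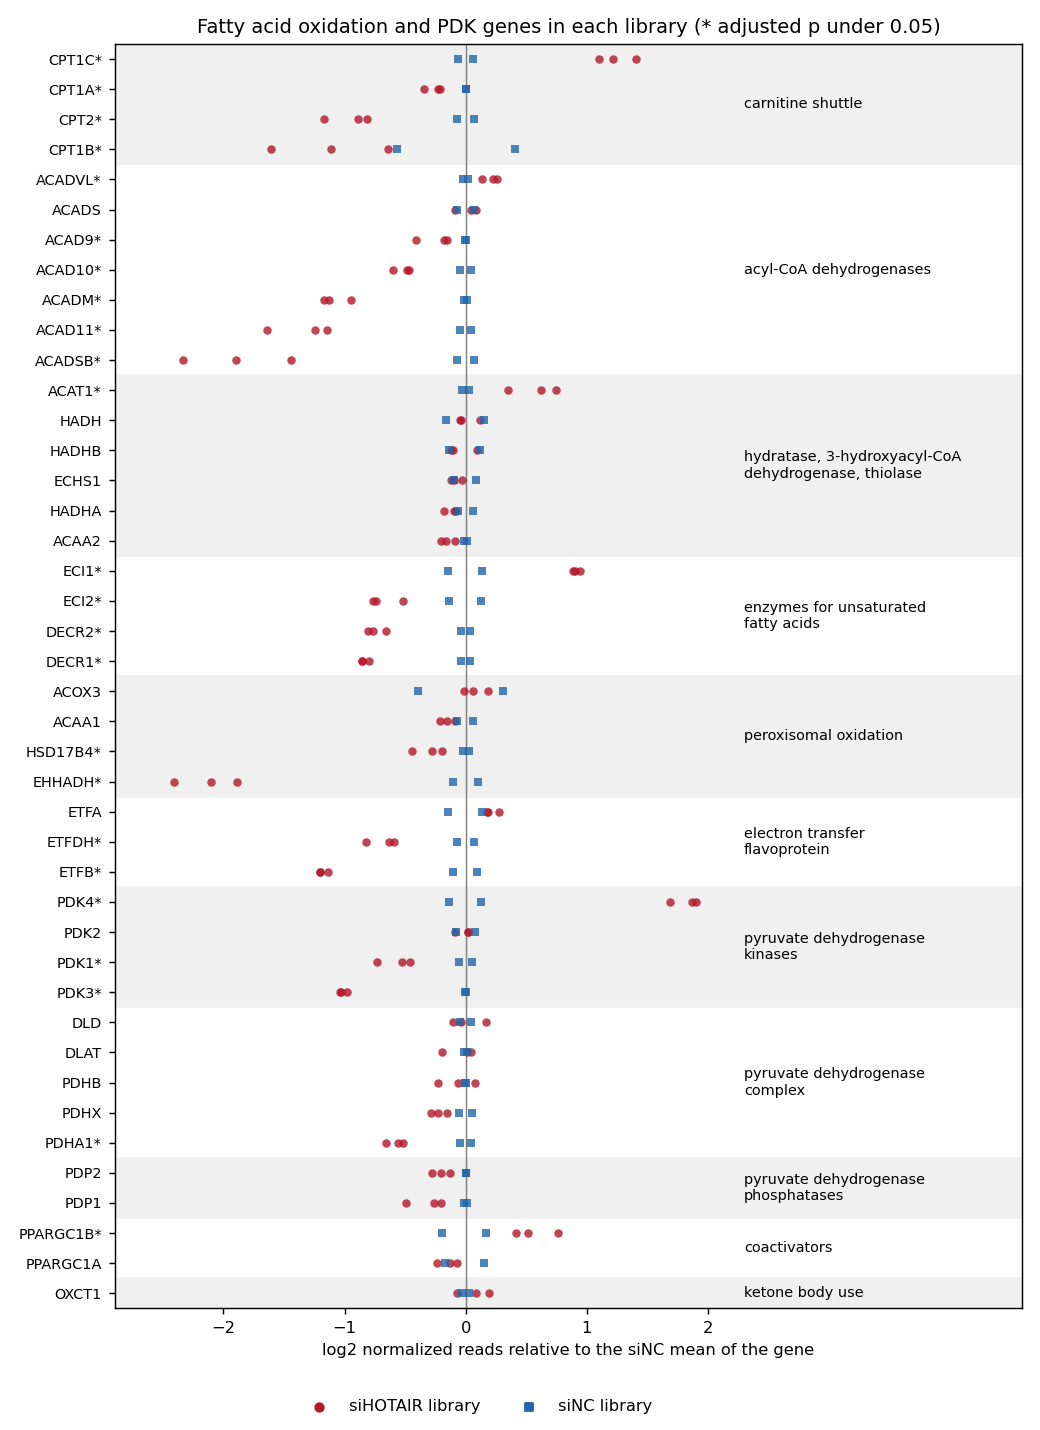
Normalized reads of 42 genes in each library, as log2 relative to the mean of the siNC libraries (horizontal), with genes grouped by role down the page. Red circles are 3 siHOTAIR libraries, blue squares 2 siNC libraries, and an asterisk marks an adjusted p under 0.05. Genes of the thiolase group other than ACAT1 and of the pyruvate dehydrogenase complex other than PDHA1 carry no asterisk, while PDK4 lies far to the right and ACADSB and EHHADH far to the left; ACOX2, with 0 reads in 2 libraries, is not drawn.

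Of the 6 genes of the later steps of the mitochondrial cycle none fell and 1 rose, beside 20.4% and 20% of all features. HADHA, the alpha subunit of the trifunctional protein, had 2543, 2508 and 2378 normalized reads in siHOTAIR and 2570.3 and 2804 in siNC. HADHB, its beta subunit, had 1063, 915 and 926 in siHOTAIR and 909 and 1085 in siNC. HADHA was at -0.12 (log2, SE 0.0705) and HADHB at -0.04 (SE 0.0953) in the authors' deposited table, and neither passed. Both genes have pseudogenes by name. HADH, ECHS1 and ACAA2, the short-chain hydroxyacyl-CoA dehydrogenase, enoyl-CoA hydratase and thiolase, were at 0.02, -0.08 and -0.15 (log2) in the authors' deposited table, with adjusted p of 0.898, 0.477 and 0.185. After centring on features with high means, HADHA and ACAA2 passed as lower, with log2 fold changes of -0.20 and -0.23 and adjusted p of 0.0145 and 0.0262. ACAT1, the acetoacetyl-CoA thiolase that also serves ketone bodies and isoleucine, was the gene that rose. ACAT1 had 1069, 982 and 812 normalized reads in siHOTAIR, against 625 and 648 in siNC, with the lowest siHOTAIR library still above siNC. ACAT1 rose by 0.58 (log2, SE 0.104) in the authors' deposited table, with an adjusted p of 2.25e-07. The difference in response between the first step and the later ones was not tested.

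All 4 auxiliary enzymes, which move or remove double bonds that the cycle cannot pass, were called, 3 lower and 1 higher. Among all features 20.4% were called lower and 20% higher. ECI1, the mitochondrial enoyl-CoA isomerase, had 858, 865 and 892 normalized reads in siHOTAIR, against 419 and 508 in siNC. The siHOTAIR libraries lay close together and averaged 188% of the siNC mean. ECI1 rose by 0.91 (log2, SE 0.0972) in the authors' deposited table, with an adjusted p of 2.19e-19. ECI2, an isomerase of the same reaction found in peroxisomes and mitochondria, had 162, 139 and 136 normalized reads in siHOTAIR, against 210.1 and 253 in siNC. ECI2 fell by 0.64 (log2, SE 0.153) in the authors' deposited table, with an adjusted p of 0.000138. The isomerases thus parted, and the ratio of ECI1 to ECI2 reads was 5.30, 6.22 and 6.55 in siHOTAIR, against 1.99 and 2.0 in siNC. DECR1, the mitochondrial dienoyl-CoA reductase, had 144, 149.9 and 144 normalized reads in siHOTAIR, against 267 and 253 in siNC. DECR2, its peroxisomal counterpart, had 159, 164 and 177 normalized reads in siHOTAIR, against 272 and 285 in siNC. Both reductases were lower in every siHOTAIR library. DECR1 fell by 0.82 (log2, SE 0.142) with an adjusted p of 7.27e-08 and DECR2 fell by 0.73 (SE 0.137) with 8.55e-07 in the authors' deposited table. DECR2 shares exon bases on its strand with NME4.

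Of the 5 peroxisomal genes 2 fell, beside 20.4% of all features. EHHADH, the bifunctional hydratase and dehydrogenase known as a PPAR-alpha target in liver, had 8.66, 10.7 and 12.4 normalized reads in siHOTAIR, against 42.7 and 49.3 in siNC. The siHOTAIR mean was 23.0% of the siNC mean, from 10 to 11 reads per siHOTAIR library and 44 and 51 per siNC library. EHHADH fell by 1.90 (log2, SE 0.366; 3.74-fold) in the authors' deposited table, with an adjusted p of 1.64e-06. HSD17B4, the D-bifunctional protein that carries out the same steps for branched and very long chains, had 784, 738 and 657 normalized reads in siHOTAIR, against 879.9 and 911 in siNC. HSD17B4 was far more read than EHHADH and differed less. HSD17B4 fell by 0.30 (log2, SE 0.0915) in the authors' deposited table, with an adjusted p of 0.00429. The oxidase ACOX3 had 74.5, 70.7 and 81.1 normalized reads in siHOTAIR and 54.4 and 88.5 in siNC, and the thiolase ACAA1 254, 234 and 243 in siHOTAIR and 258 and 283 in siNC. Neither passed, ACOX3 at 0.09 (log2, SE 0.232) and ACAA1 at -0.14 (SE 0.128) in the authors' deposited table. HSD17B4 shares exon bases on its strand with FAM170A. Exons of EHHADH-AS1 lie opposite EHHADH, and whether the counting used strand is not known here.

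The electron transfer flavoprotein, a dimer of an alpha and a beta chain, changed in its beta chain. ETFB, the beta chain, had 416, 436 and 418 normalized reads in siHOTAIR, against 893 and 1026 in siNC. ETFB thus stood at 44.1% of its siNC mean with little spread between siHOTAIR libraries. ETFB fell by 1.17 (log2, SE 0.0961; 2.25-fold) in the authors' deposited table, with an adjusted p of 3.92e-32. ETFA, the alpha chain, had 858, 799.7 and 803 normalized reads in siHOTAIR, against 639 and 776 in siNC. All siHOTAIR libraries of ETFA lay above siNC, the opposite side from ETFB. ETFA was at 0.22 (log2, SE 0.0959) in the authors' deposited table and did not pass there, with an adjusted p of 0.055. In limma ETFA passed as higher (adjusted p = 0.036), but not without siNC library a (0.576), siHOTAIR library a (0.102) or siHOTAIR library b (0.0747). Within a library, the ratio of ETFB to ETFA reads was 0.484, 0.545 and 0.520 in siHOTAIR, against 1.40 and 1.32 in siNC. ETFDH, the oxidoreductase that passes the electrons on to ubiquinone, had 145, 141 and 123 normalized reads in siHOTAIR, against 229 and 207 in siNC. ETFDH fell by 0.67 (log2, SE 0.153) in the authors' deposited table, with an adjusted p of 7.13e-05. ETFB shares exon bases on its strand with AC008750.8, and ETFDH lies opposite exons of PPID.

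**Figure D4:**
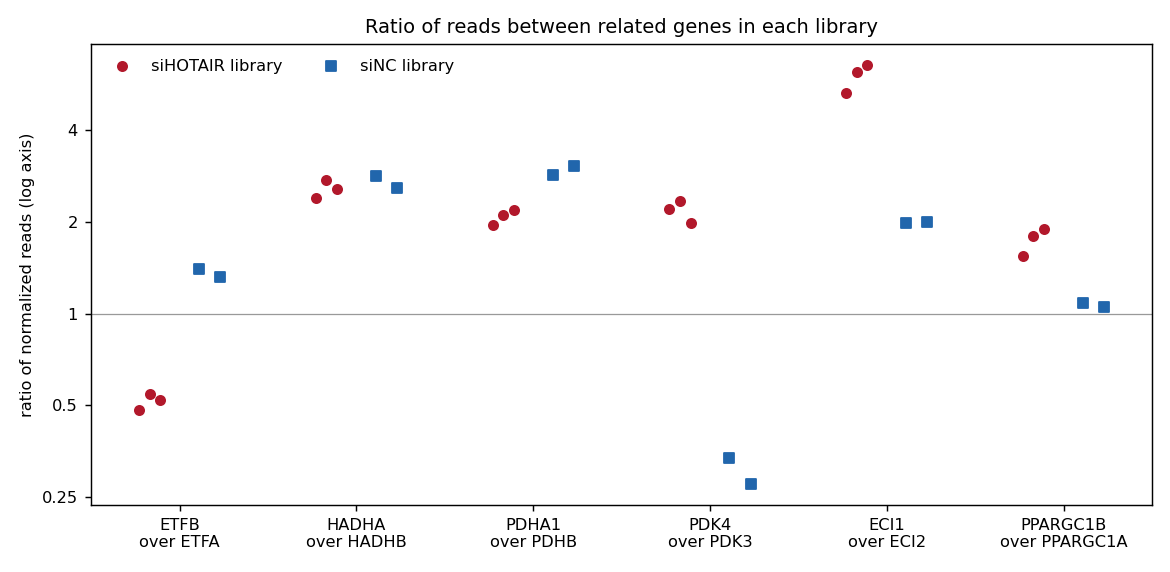
Ratio of normalized reads between 6 pairs of related genes in each library, on a log axis. Red circles are siHOTAIR libraries and blue squares siNC libraries. The ratio of ETFB to ETFA averages 0.517 in siHOTAIR and 1.36 in siNC, and the ratio of PDK4 to PDK3 2.18 in siHOTAIR and 0.305 in siNC, while the ratio of HADHA to HADHB overlaps between the groups.

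Read ratios of these pairs stood apart between the groups, while those of the trifunctional protein did not. The ratio of HADHA to HADHB reads was 2.39, 2.74 and 2.57 in siHOTAIR and 2.83 and 2.59 in siNC, which overlapped (two-sided exact permutation p = 0.4). The ratios of ETFB to ETFA, PDHA1 to PDHB, ECI1 to ECI2 and PDK4 to PDK3 did not overlap between groups, each with the smallest p this test allows, 0.2. Each of these pairs held a gene already called, while neither HADHA nor HADHB was called, so the ratios restate those values and add no support. Of single features with a mean of at least 20, 34.7% lay all below and 32.9% all above siNC. No such share was computed for ratios. Differences of log2 ratio, siHOTAIR minus siNC, were -1.40 for ETFB to ETFA, -0.51 for PDHA1 to PDHB, 1.59 for ECI1 to ECI2, 2.84 for PDK4 to PDK3 and -0.08 for HADHA to HADHB. Summed per kb of exons, the flavoprotein genes with ETFDH averaged 258 ± 7.82 in siHOTAIR and 336 ± 30.3 in siNC (SD, n = 3 and 2).

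Of the coactivators, PPARGC1B rose. PPARGC1B, a partner of PPAR and oestrogen-related receptors, had 231, 248 and 294 normalized reads in siHOTAIR, against 195 and 151 in siNC. All siHOTAIR libraries lay above siNC. PPARGC1B rose by 0.55 (log2, SE 0.151) in the authors' deposited table, with an adjusted p of 0.00109. PPARGC1A, the coactivator known for driving fatty acid oxidation and gluconeogenesis in fasted liver, had 149, 138 and 155 normalized reads in siHOTAIR and 181 and 145 in siNC. PPARGC1A was at -0.15 (log2, SE 0.162) in the authors' deposited table with an adjusted p of 0.509, and its groups overlapped. OXCT1, the enzyme that activates ketone bodies for use, had 1765, 1642 and 1477 normalized reads in siHOTAIR and 1515 and 1579.8 in siNC, and was at 0.08 (log2, SE 0.0812) in the authors' deposited table with an adjusted p of 0.497.

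Neighbouring pathway genes were read in the same table. Among all 14597 features with an adjusted p, 20% rose and 20.4% fell, with a median log2 fold change of 0.01. Whether any neighbouring list differed from these shares was not tested, and several lists lay near them. Among fatty acid uptake and activation genes 4 of 16 with an adjusted p rose and 3 fell, with a median log2 fold change of 0.13. ACSS2, the cytosolic acetyl-CoA synthetase, fell by 1.13 and DBI, the acyl-CoA-binding protein, fell by 0.47, while the transporters SLC27A4 and SLC27A2 rose by 0.44 and 0.42 in the authors' deposited table. Among carnitine and malonyl-CoA genes 1 of 9 rose and 4 fell (median -0.07). SLC22A5, the carnitine transporter of the plasma membrane, rose by 0.43, and ACACB, the acetyl-CoA carboxylase whose malonyl-CoA restrains CPT1, fell by 0.70 in the authors' deposited table, where CRAT fell by 0.36 and ALDH9A1 fell by 0.31. Among 4 other dehydrogenases linked to the flavoprotein none passed, with log2 fold changes of -0.27 to 0.08 (median -0.18). Among other peroxisomal genes 2 of 12 rose and 3 fell (median -0.27). Catalase (CAT), the sterol carrier and thiolase SCP2 and the transporter ABCD3 fell by 0.51, 0.38 and 0.30 in the authors' deposited table.

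Ketone body genes had 0 of 7 higher and 4 lower, with a median of -0.49. SLC16A6, a monocarboxylate transporter, had 224, 199 and 188 normalized reads in siHOTAIR, against 784 and 789.9 in siNC, and fell by 1.93 (log2, adjusted p = 1.78e-66) in the authors' deposited table. BDH1, hydroxybutyrate dehydrogenase, fell by 0.94 and AACS, acetoacetyl-CoA synthetase, fell by 0.49 in the authors' deposited table. Pyruvate entry and lipoylation genes had 0 of 14 higher and 5 lower (median -0.16). NFU1, an iron-sulfur carrier needed for lipoic acid synthesis, fell by 1.26, MPC1, a subunit of the mitochondrial pyruvate carrier, fell by 1.04, PDPR, the regulator of the phosphatase, fell by 0.72 and LDHA fell by 0.64 in the authors' deposited table. Complexes related to pyruvate dehydrogenase had 1 of 8 higher and 4 lower (median -0.29). BCKDHA, the counterpart of PDHA1 for branched-chain keto acids, fell by 1.10, BCKDHB fell by 0.67 and DLST fell by 0.40, while the kinase BCKDK rose by 0.35 in the authors' deposited table.

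PPAR and mitochondrial regulators had 7 of 21 higher and 4 lower, with a median of 0.08. PPARA, the receptor known to drive fatty acid oxidation genes, had 59.8, 65.3 and 66.5 normalized reads in siHOTAIR, against 142 and 114 in siNC. PPARA fell by 0.99 and PPARD fell by 0.47, while the coactivator PPRC1 rose by 0.44 in the authors' deposited table. PPAR target genes outside the 43 had 3 of 10 higher and 2 lower (median -0.01). ANGPTL4, an inhibitor of lipoprotein lipase, fell by 1.02 and PNPLA2, the triglyceride lipase, fell by 0.19, while the thioesterase ACOT2 rose by 0.48 in the authors' deposited table. PDK4 and EHHADH, both known as PPAR targets, thus lay at opposite ends of the 43 genes.

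**Figure D5:**
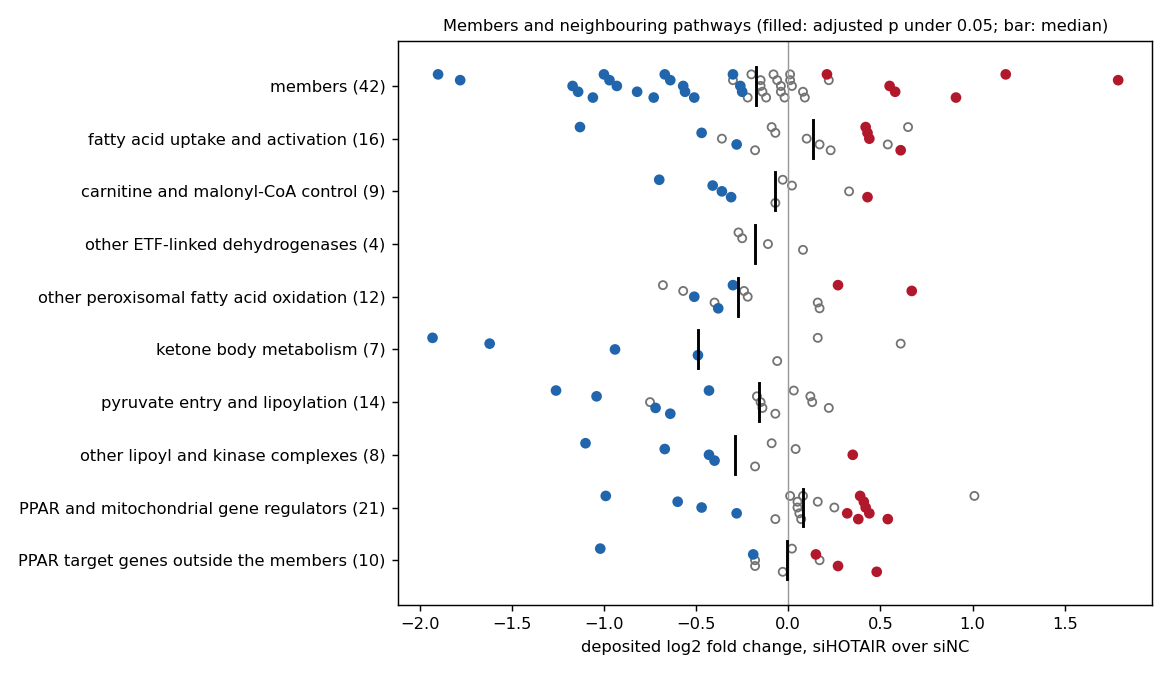
Deposited log2 fold change of siHOTAIR over siNC (horizontal) for the 42 genes with an adjusted p and for 9 neighbouring pathway lists, with the number of genes in brackets. Filled points passed an adjusted p of 0.05 (red higher, blue lower in siHOTAIR), open points did not, and bars are medians. The median was -0.49 for ketone body genes and 0.13 for uptake and activation genes.

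Markers of other cell types moved with the groups, and their part in these results was not tested. Among all features with an adjusted p, 20% rose and 20.4% fell. Fibroblast and stellate markers had 4 of 7 higher (COL1A1, COL5A1, PDGFRB and DCN), summing to 11622 to 13062 normalized reads in siHOTAIR and 5711 to 5910.0 in siNC. COL5A1 made up most of both sums, with 9446 to 10515 in siHOTAIR and 4438 to 4632 in siNC, and ACTA2 and COL3A1, at -0.47 and -0.07 (log2) in the authors' deposited table, did not pass. Endothelial markers had 2 of 4 higher and summed to 1925 to 1957 in siHOTAIR and 1278 to 1389 in siNC. ENG held most of that sum, with 1811 to 1843 in siHOTAIR and 1206 and 1315 in siNC, while the more specific PECAM1 and VWF had 4.28 to 4.51 and 5.35 to 13.5 in siHOTAIR and 4.48 to 5.86 and 0 to 1.12 in siNC. Recovered hepatocyte markers summed to 30.3 to 37.2 in siHOTAIR and 19.0 to 20.9 in siNC, with none of the 11 called. Simple epithelial markers had 0 of 6 called. KRT8, KRT18 and KRT7, whose reads per library were not recovered, were abundant, with means of 22106, 13319 and 11514 and log2 fold changes of 0.05, -0.10 and -0.06 in the authors' deposited table. The other 3, KRT19, CDH1 and EPCAM, had few reads, summing to 21.4 to 26 in siHOTAIR and 11.2 to 13.4 in siNC. Stratified epithelial markers had 1 of 3 lower (2238 to 2446 in siHOTAIR, 2713 to 3191 in siNC) and leukocyte markers 1 of 3 lower (122 to 148 in siHOTAIR, 183 to 201 in siNC). No per-library split by batch was possible, since the labels give no batch.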

How the data were processed

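Ribosome-depleted total RNA was sequenced with a stranded kit, per the labels' protocols, and the authors used HTSeq 0.6.1, DESeq, DESeq2 and hg19, per the submitters' processing notes. Aligner, annotation and strandedness of counting were not given in the sources used. The authors deposited a mean signal, counts scaled by size factors and averaged over libraries. The log2 fold changes with their standard errors, the p-values with their Benjamini-Hochberg adjustment and the score in the statistic column are the authors' as deposited, and the fold changes are shrunken toward 0. The 43 genes and all lists were chosen with earlier results of these data known.

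Reads per library were recovered as whole-number sums of 5 steps equal to the deposited mean. The steps were themselves found from the means up to 2, so all 3940 of these were such sums by construction. After a random offset 0 were. Of 2396 distinct means up to 6, a range that includes these, 0 lacked such a sum and 0 had several. Steps were assigned to groups by the sign of the fold change of features with a single read. Above a mean of 100 the search was limited to a window set by the deposited fold change and its standard error. Of the 43 genes 36 had 1 solution in the search. Above 100 even a single solution had to return the deposited fold change within 1e-05 when refitted. For the others the solution was taken whose refitted negative binomial model returned the deposited fold change. The largest difference between refitted and deposited log2 fold change among the 43 genes was 2.9e-06. In all 19304 of 19461 features with a mean above 0 were recovered. The 10268 features with a mean up to 100 were solved from the mean alone. Of these, 2615 had a refit difference above 1e-05, at most 0.0799, and 249 could not be refitted. Library letters are arbitrary. The search and the limma fit were tested on simulated data.

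The main result is the authors' test at an adjusted p of 0.05. The second is limma 3.58.1 (R 4.3.3) with a mean trend on log2(normalized reads + 1) over 11941 recovered features with a mean of at least 20, with Benjamini-Hochberg adjustment over them. edgeR was planned for counts deposited per library and was not run. Ratios were compared with exact permutation tests (scipy 1.17.1). Every one of the 43 genes was named, and of each neighbouring list at most the 4 with the smallest deposited p. Features were matched to symbols by RefSeq (19108 by gene ID, 386 by accession, 95 unmatched), and exon lengths and overlaps are from GENCODE 29 on GRCh38, not the authors' build. Other settings tried were a threshold of 0.01, a 2-fold minimum, no filter or a mean of 20, a different centre, the authors' call word, limma-voom, a pseudocount of 0.5, a mean of 5, TMM-like scaling and leaving out each library. Library sizes limit precision most for genes under 100 reads. Some genes and 1 sequence that fall under these rules are not reported here.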

Additional observations from a re-analysis of the deposited data

How the results depend on the processing

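The counts of genes called, lower and higher in the authors' deposited table were 24, 18 and 6. With a 2-fold minimum they were 8, 6 and 2, and by the authors' call word 7, 5 and 2. At a threshold of 0.01 they were 20, 15 and 5. Centring on the median of features with high means, 0.083 above 0 on the log2 scale, gave 26, 21 and 5, and the other alternatives gave 24 in all. In limma 25, 18 and 7 genes were called, and leaving out 1 library gave 20 to 24, 15 to 17 and 5 to 7. Other limma settings gave 24 to 26 in all.

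No called gene changed direction in any alternative. Genes near 0 did. The same centring turned ACADS (-0.07), HADH (-0.06), DLD (-0.07) and OXCT1 (-0.01). Leaving out 1 library in limma gave ranges across 0 for ACADS (-0.06 to 0.09), ACOX3 (-0.23 to 0.46), DLAT (-0.09 to 0.03), DLD (-0.07 to 0.06), ECHS1 (-0.17 to 0.01), HADH (-0.13 to 0.18), HADHB (-0.17 to 0.09), PDHB (-0.15 to 0.01), PDK2 (-0.09 to 0.07) and PPARGC1A (-0.29 to 0.03). The cause was not tested.

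No paired analysis was possible because the recovered libraries carry no replicate number. Leaving out a siNC library leaves 1, which is then assumed to vary like the siHOTAIR libraries. Low depth limits CPT1B, ACAD11, EHHADH and ACOX2, and their deposited fold changes are shrunken: the unshrunken log2 ratio of means was -2.12 for EHHADH and -1.33 for ACAD11.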
